A study of Mus musculus with 2 samples.

Results

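CHD2 binding in mouse embryonic stem cells was deposited as an optimal and a conservative peak list on mm10, and the 2284 peaks described here were the optimal peaks that overlapped no conservative peak by 1 bp or more. They were 2284 of 8282 optimal peaks and are called optimal-only. The other 5998 optimal peaks overlapped a conservative peak and are called shared, and 1506 of the 7530 conservative peaks overlapped no optimal peak and are called conservative-only. Binding was measured by ChIP-seq with an antibody to CHD2 in ES-E14, a male embryonic stem cell line of strain 129/Ola, with no treatment or genetic change given in the labels. There was 1 group of 2 biological replicates. Both carry the label of the same cell line and the same biosample, so they describe 1 line, and nothing in the labels says how far apart the cultures were. Read depth is not known from peak lists, and every interval below covers the counting error of peaks, genes or windows only, since peaks of 1 pair of libraries are not replicates of the cells.

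CHD2 is an ATP-dependent chromatin remodeller of the chromodomain helicase family. Such enzymes move or space nucleosomes, and CHD2 is known for its association with transcribed genes and with the deposition of the histone variant H3.3. Both lists come from the irreproducible discovery rate procedure, abbreviated IDR, which keeps peaks whose rank recurs between 2 rankings. In common use a conservative list compares the true replicates, whereas an optimal list takes the larger result of that comparison and one of pooled reads split at random. No source used here gives the derivation of these 2 lists in detail. The members here were thus chosen by measured ranks, through the 2 lists, and the signals and ranks of the members are descriptions without a test. Location relative to genes and promoter sequence were not used to choose them. Neighbouring peaks entered indirectly, because an optimal peak that overlaps the conservative peak of a neighbour counts as shared.

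The promoter sequences under the summits of 8 members are shown first, because 6 of them held a pair of the same short sequence, CCAAT. They were picked after their sequences were seen. Over all 20 sequences extracted for named optimal-only peaks, 7 held 2 or more matches to CCAAT, 3 held 1 and 10 held none, so the 8 shown hold more pairs than the rest. H2ac4, H2ac8 and Shkbp1 are the 3 strongest promoter peaks with no overlapping replicate 1 peak. Each line gives the summit and 50 bases on either side, from RefSeq promoter windows of GRCm38.p6, 5′ to 3′ on the strand of the gene. Capitals mark exact matches, on either strand, to 9 of the 10 short sequences searched, which are spelled out further below; matches to the other, CGCG, are left in lower case. In these lines they are CCAAT (read ATTGG on the other strand), the box bound by the factor NF-Y, together with AAGATGGC, CACGTG, CTCGCGAG and GGGCGG. Sf3b2, which held none of the 10 in these bases, and Aldh4a1, Mcm10, Cdc25a and Pde12 are shown as further members with peaks in both replicates. The shared peaks at Qrich1 and Sec23ip are shown for contrast, because they were the strongest shared promoter peaks within these windows and held CTCGCGAG. The next in strength, at Cenpt and Atp5pb (signals 428 and 427), held no exact match to CTCGCGAG in these bases and are not shown. They held the shorter TCGCGAG (Cenpt) and CTCGCGA (Atp5pb), which the search did not count.
Sf3b2, chr19:5295516-5295616, minus strand: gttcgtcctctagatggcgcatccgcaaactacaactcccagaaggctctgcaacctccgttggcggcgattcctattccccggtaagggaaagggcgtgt
H2ac4, chr13:23750925-23751025, plus strand: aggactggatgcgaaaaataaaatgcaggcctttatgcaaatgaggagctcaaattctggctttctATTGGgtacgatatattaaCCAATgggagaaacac
H2ac8, chr13:23571190-23571290, minus strand: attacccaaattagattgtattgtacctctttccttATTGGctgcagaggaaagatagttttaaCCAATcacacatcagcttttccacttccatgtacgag
Shkbp1, chr7:27355997-27356097, minus strand: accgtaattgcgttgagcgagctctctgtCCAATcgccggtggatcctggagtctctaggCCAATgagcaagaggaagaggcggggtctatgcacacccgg
Aldh4a1, chr4:139622773-139622873, plus strand: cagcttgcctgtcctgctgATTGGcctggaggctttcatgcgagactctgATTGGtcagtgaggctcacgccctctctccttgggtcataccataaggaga
Mcm10, chr2:5012799-5012899, minus strand: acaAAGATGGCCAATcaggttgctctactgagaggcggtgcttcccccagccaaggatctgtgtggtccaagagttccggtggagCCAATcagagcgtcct
Cdc25a, chr9:109875427-109875527, plus strand: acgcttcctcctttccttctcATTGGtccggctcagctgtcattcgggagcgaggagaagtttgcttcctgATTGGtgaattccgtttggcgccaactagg
Pde12, chr14:26669916-26670016, minus strand: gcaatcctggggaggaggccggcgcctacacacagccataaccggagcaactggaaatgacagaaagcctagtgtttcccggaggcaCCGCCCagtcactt
Qrich1 and Sec23ip, shared, follow.
Qrich1, chr9:108517003-108517103, plus strand: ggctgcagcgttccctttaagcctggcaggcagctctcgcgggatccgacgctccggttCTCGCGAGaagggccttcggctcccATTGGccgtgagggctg
Sec23ip, chr7:128744752-128744852, plus strand: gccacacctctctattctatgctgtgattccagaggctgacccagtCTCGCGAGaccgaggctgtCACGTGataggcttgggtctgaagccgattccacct

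Optimal-only peaks lay in the weaker part of the optimal list. Signal is the authors' value per peak, without a stated unit, and classes of optimal peaks are compared within a list. Further below, signals of the 2 replicates are set side by side as deposited, and are not known to share a scale. The lowest and median signals were 3.655 and 4.693 in the list of replicate 1, and 2.788 and 3.799 in that of replicate 2. Their median signal was 20.5, with quartiles of 16.015 and 24.4 and a range of 5.74 to 56.4. Shared peaks had a median of 36.5, quartiles of 26.3 and 61.4 and a range of 5.75 to 463. The median of the optimal-only peaks was thus 0.561 times that of the shared peaks, and the lower ends of both ranges were alike. Of the optimal-only peaks, 2084 (91.2%) had a signal under the median of the whole list, 29.6, against 34.3% of the shared peaks. Conservative-only peaks had a median of 20.4 in their own list. The deposited −log10 q-value had a median of 1.87 for optimal-only, 2.27 for shared and 1.86 for conservative-only peaks.

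The share of optimal-only peaks did not fall steadily along the list. When the optimal peaks were ordered by signal and divided into 10 classes of like size, 62.8% of the weakest class was optimal-only, and the share was highest in the next class, at 70.4%. It then dropped through 54.1, 38.4, 25.8, 15.0, 6.76 and 2.42% in the third to the eighth class. The strongest 2 classes, which began at a signal of 56.9, held no optimal-only peak. Most of the weakest peaks lay on top of a neighbour: 154 of the 159 shared peaks with a signal under 10 (96.9%) and 154 of the 228 optimal-only peaks under 10 (67.5%) overlapped another optimal peak.

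**Figure D1:**
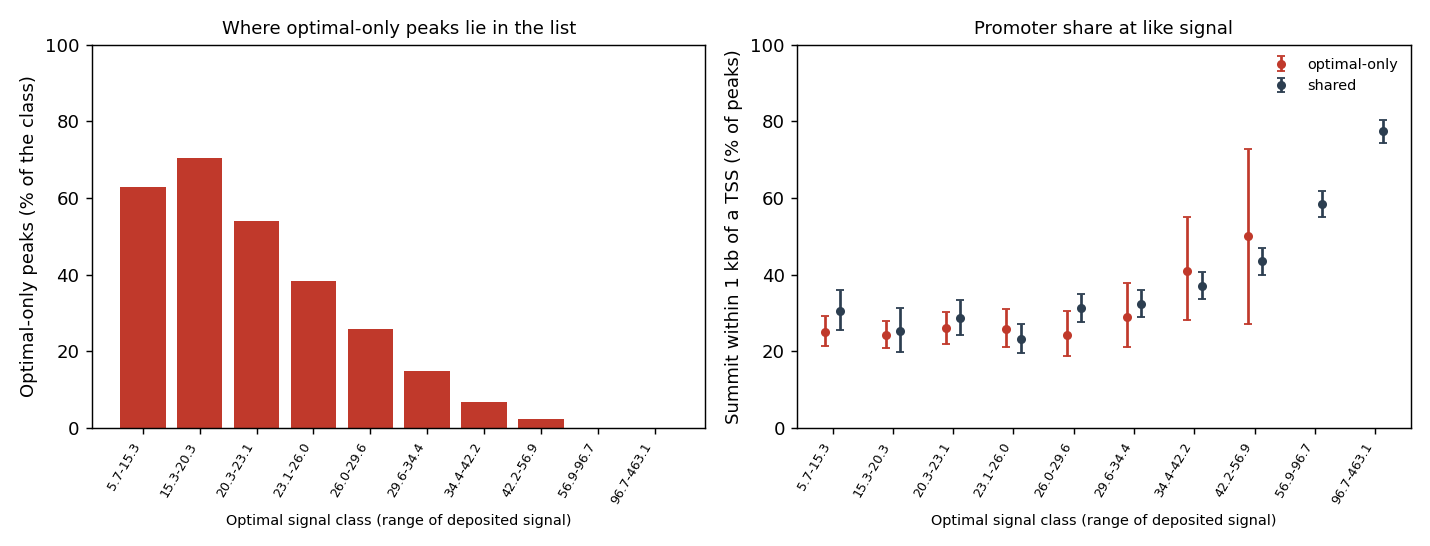
Left, the percentage of optimal-only peaks (vertical axis) in 10 classes of optimal signal (horizontal axis, range of deposited signal per class). Right, the percentage of peaks with a summit within 1 kb of a transcription start site in the same classes, for optimal-only (red) and shared (dark) peaks, with exact 95% binomial intervals. Optimal-only peaks make up 62.8 and 70.4% of the weakest 2 classes and none of the strongest 2, and the promoter intervals of both kinds overlap in each class that holds both.

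The members differed in rank between the replicates far more than the shared peaks did. In the relaxed list of a replicate, which held 300000 peaks, the overlapping peak with the highest signal was taken for each optimal peak, and rank 1 is the strongest peak of a replicate. Of the optimal-only peaks, 1992 (87.2%, interval 85.8 to 88.6%) overlapped a relaxed peak in both replicates, against 99.8% of shared and 94.2% of conservative-only peaks. A further 90 overlapped a peak of replicate 1 only, 201 of replicate 2 only and 1 of neither. The median rank of optimal-only peaks was 21837 in replicate 1 and 11660 in replicate 2, with peaks without a match ranked last. The better of the 2 ranks had a median of 5310 and the worse a median of 43825. For shared peaks these were 2433 and 4768, and for conservative-only peaks 6520.5 and 12118. Optimal-only peaks thus had a better rank that was a little ahead of that of conservative-only peaks, and a far lower place in the other replicate.

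Among peaks matched in both replicates, the ranks of optimal-only peaks were 7.15-fold apart in the median (interval 6.72 to 7.48, n = 1992 peaks). This is a log2 difference of 2.84, against 0.74 for shared and 0.73 for conservative-only peaks. Ranks over 4-fold apart were found for 1398 of 1992 optimal-only peaks (70.2%), 8.47% of shared and 5.57% of conservative-only peaks. Both ranks were within 20000 for 299 optimal-only peaks (13.1%), 99.6% of shared and 94.2% of conservative-only peaks. The 1419 conservative-only peaks matched in both replicates had both ranks within 20000 without exception. These ranks went into the making of the lists, so the contrast describes the choice of the peaks.

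**Figure D2:**
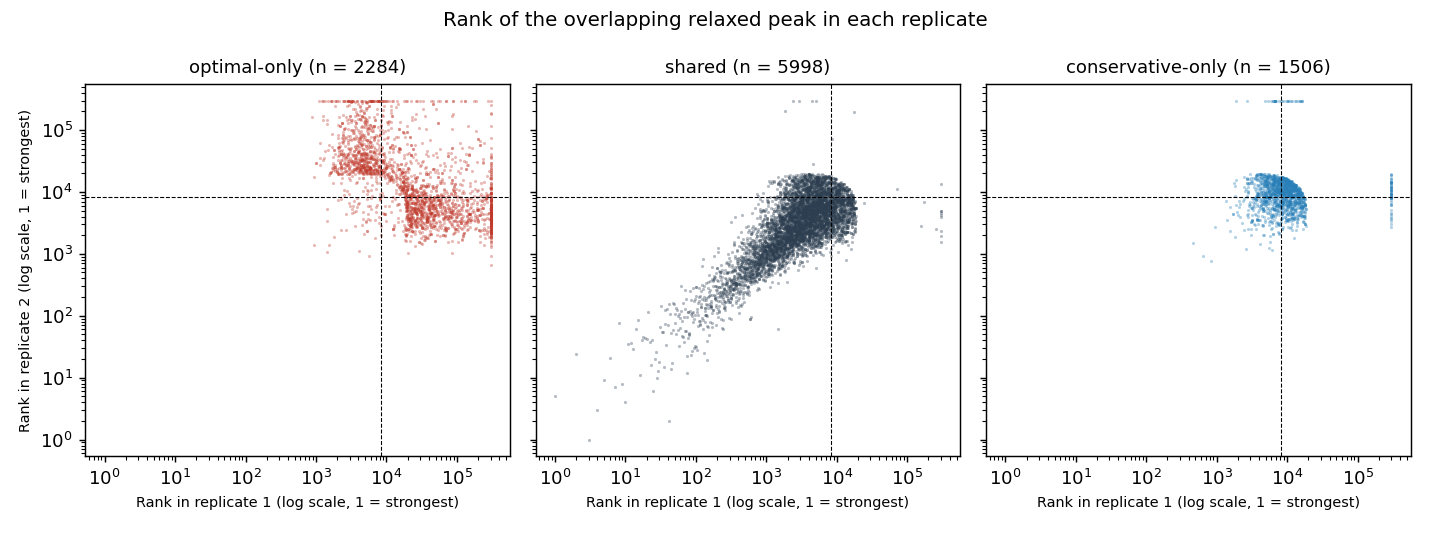
Rank of the strongest overlapping relaxed peak in replicate 1 (horizontal, log scale) against replicate 2 (vertical, log scale), 1 point per peak, for 2284 optimal-only, 5998 shared and 1506 conservative-only peaks. Dashed lines mark rank 8282, and points on the far edge have no overlapping relaxed peak. Optimal-only peaks form 2 arms, strong in 1 replicate and weak in the other, while shared peaks lie along the diagonal.

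Neither replicate alone supplied the optimal-only peaks. Taking the 8282 strongest peaks of each replicate, as many as in the optimal list, 697 optimal-only peaks (30.5%) overlapped one in replicate 1 only and 906 (39.7%) one in replicate 2 only. Only 53 (2.32%) overlapped such a peak in both, and 628 (27.5%) in neither. Of the shared peaks, 4332 (72.2%) did so in both. Replicate 2 gave the better rank for 1311 of the 2284 optimal-only peaks (57.4%), against 50.3% of shared peaks. The median signal in replicate 1 was 7.89 for optimal-only and 19.0 for shared peaks, a ratio of 0.416. In replicate 2 it was 9.86 against 19.0, a ratio of 0.518.

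Many of the missing matches had a relaxed peak close by. For the 202 optimal-only peaks without a replicate 1 match, the median gap to the nearest replicate 1 peak was 584 bp, and for 40.1% it was at most 360 bp, the usual width of an optimal peak. Their median signal in replicate 2 was 15.6. The 91 without a replicate 2 match had a median gap of 221 bp to the nearest replicate 2 peak, and 61.5% lay within 360 bp of one. Their median signal in replicate 1 was 12.5.

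Of the 10 strongest optimal-only promoter peaks, 8 were in the strongest list of 1 replicate only, while those at Sf3b2 and Adpgk ranked within the strongest 8282 peaks of both replicates. Peaks are called promoter peaks here where the summit was at most 1 kb from the transcription start site, or TSS, of a protein-coding gene. The peak of Sf3b2, which encodes a subunit of splicing factor 3b, lay at chr19:5295386-5295745 with its summit at −109 bp from the TSS (negative is upstream) and had a signal of 56.2. Its signal was 13.6 in replicate 1 (rank 5572) and 46.5 in replicate 2 (rank 911). H2ac4 and H2ac8 are replication-dependent histone genes. The H2ac4 peak at chr13:23750795-23751154 had a signal of 55.3, with a signal of 46.1 in replicate 2 (rank 928) and no overlapping replicate 1 peak, the nearest lying 420 bp away. The H2ac8 peak at chr13:23571060-23571419, also within 1 kb of the TSS of H2bc8, had a signal of 53.9, with 57.0 in replicate 2 (rank 662) and the nearest replicate 1 peak 389 bp away. At Shkbp1 (chr7:27355867-27356226, signal 43.7) the replicate 2 signal was 35.9 (rank 1286) and the nearest replicate 1 peak lay 224 bp away. In all of these the higher value was that of replicate 2.

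Peaks at Gpa33 and Aldh4a1 had the same order. Gpa33, a cell surface antigen of gut epithelium, had a peak at chr1:166130980-166131339 with signals of 8.07 in replicate 1 and 43.2 in replicate 2. Aldh4a1, a mitochondrial enzyme of proline breakdown, had a peak at chr4:139622643-139623002 with signals of 8.34 and 29.8. The order was the opposite at Ttll9, Adpgk, Fbxo15 and Ccdc90b, where replicate 1 was higher. Ttll9, of the tubulin tyrosine ligase-like family, had a peak at chr2:152962563-152962922 with signals of 38.6 and 6.92. The Ttll9 summit lay 258 bp inside an internal start and 11697 bp from the outer 5′ end of the gene. Adpgk, the ADP-dependent glucokinase, had a peak at chr9:59290985-59291344 with signals of 32.1 and 18.5 (ranks 1455 and 3440), and its replicates were the closest of the 10. Fbxo15, an F-box gene expressed in embryonic stem cells, had a peak at chr18:84933764-84934123 with signals of 35.7 and 6.47. The Ccdc90b peak, at chr7:92561303-92561662, had a replicate 1 signal of 40.4 (rank 1085), and the nearest replicate 2 peak lay 103 bp away.

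**Figure D3:**
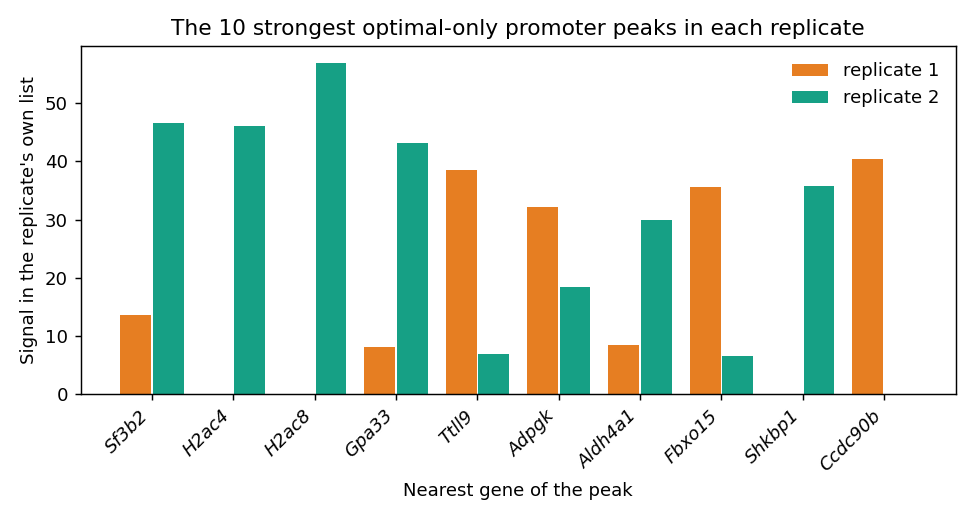
Signal in each replicate's own relaxed list (vertical axis) for the 10 strongest optimal-only promoter peaks, named by the nearest gene and ordered by optimal signal; a missing bar means no overlapping relaxed peak. Replicate 2 is higher at Sf3b2, H2ac4, H2ac8, Gpa33, Aldh4a1 and Shkbp1, and replicate 1 at Ttll9, Adpgk, Fbxo15 and Ccdc90b.

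The strongest promoter peaks without a replicate 2 match, after Ccdc90b, were at Dcaf8 and Spp1. Dcaf8, a substrate receptor of a cullin ubiquitin ligase, had a replicate 1 signal of 37.1 (rank 1212), with the nearest replicate 2 peak 12 bp away. Spp1, which encodes osteopontin, had 35.8 (rank 1257), with the nearest replicate 2 peak 69 bp away and a summit at −997 bp from the TSS. At these genes a replicate 2 peak thus lay beside the optimal peak without touching it.

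The 5 strongest peaks over 10 kb from a TSS all had the higher signal in replicate 1. The strongest optimal-only peak of all, at chr18:90579547-90579906 and nearest to Tmx3, had a signal of 56.4, with 45.5 in replicate 1 and 8.27 in replicate 2. A peak at chr7:80130399-80130758 nearest to Idh2 had 42.6 and 6.79, and one at chr4:138794436-138794795 nearest to Pla2g2d had 32.3 and 14.5. The peak at chr8:44979249-44979608 lay inside Fat1, an atypical cadherin, and had 38.8 and 5.24. That at chr12:40594220-40594579 lay inside Dock4, a guanine nucleotide exchange factor, and had 47.3 (rank 890) and 3.70 (rank 162695). Its ranks, 183-fold apart, differed more than those of any other optimal-only peak matched in both replicates. Next came peaks inside Hnrnpdl, an RNA-binding protein gene, and Rhof, a small GTPase gene, with ranks 172-fold and 154-fold apart and replicate 2 ahead in both.

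A minority of the members had like ranks in both replicates. At Pde12 (chr14:26669786-26670145, signal 11.6) the ranks were 39177 and 38533, at Khdrbs2 (chr1:32172469-32172828, signal 24.0) 15695 and 16270, and at the beta-tubulin gene Tubb2a (chr13:34077974-34078333, signal 6.95) 27663 and 29350. These were the promoter peaks with the most even ranks among those matched in both replicates. All 3 lay past rank 8282 in both lists.

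The members just outside overlap with a conservative peak were 8 bp (Ccdc115), 11 bp (nearest gene Dlx2) and 24 bp (nearest gene Hnrnph1) away from one, with signals of 9.06, 13.2 and 16.2. The shared peaks with the least overlap, nearest to Plagl1, Setd1a and Cfap70, overlapped by 26, 31 and 32 bp and had signals of 9.38, 10.1 and 13.8. The Ccdc115 peak, also within 1 kb of the TSS of Imp4, overlapped strong relaxed peaks in both replicates, unlike most members. Their signals were 32.8 and 42.1 (ranks 1411 and 1056). The strongest overlapping relaxed peak was taken, and whether these values belong to the neighbouring conservative peak was not tested. At the shared Cfap70 peak the relaxed signals were likewise far above its own, at 63.7 and 82.7. Few peaks were so close to the limit: 124 optimal-only peaks (5.43%) lay within 500 bp of a conservative peak and 216 (9.46%) within 1 kb, while 5774 of the shared peaks (96.3%) were fully covered by one.

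Optimal-only peaks were at promoters less often than shared peaks, and a difference of this size was not seen between peaks of like signal. Of 2281 optimal-only peaks on chromosomes 1 to 19, X and Y, 592 (26.0%, interval 24.2 to 27.8%) were promoter peaks, against 2559 of 5980 shared peaks (42.8%). The difference was −16.8 percentage points (Newcombe 95% interval −19.0 to −14.6). Within the 8 signal classes that held both kinds it was −2.15 points (Mantel-Haenszel 95% interval −4.79 to 0.480). Among peaks under the median signal, promoters took 25.1% of optimal-only and 28.0% of shared peaks, a difference of −2.83 points (−5.51 to −0.135). Against conservative-only peaks, with 29.2% at promoters, the difference was −3.23 points (−6.16 to −0.326).

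The rest of the members lay mostly far from genes' starts. Summits over 10 kb from any TSS made up 1154 of the optimal-only peaks (50.6%) and 40.2% of the shared peaks, a difference of 10.4 points (7.96 to 12.8). Within signal classes this was 0.327 points (−2.62 to 3.27), and against conservative-only peaks 4.29 points (1.03 to 7.53). Measured from the starts and ends of all genes, the difference from shared peaks was 5.72 points (3.61 to 7.88), and with a limit of 50 kb it was 5.11 points (3.16 to 7.12). Of the optimal-only peaks, 21.3% were distal and inside a protein-coding gene and 29.3% distal and outside one. Summits between 1 and 10 kb made up 23.5% of optimal-only, 17.0% of shared and 24.5% of conservative-only peaks. Summits within 1 kb of a small RNA gene were few in each class. Optimal-only peaks had 5 near a tRNA (0.219%), 7 near a snoRNA (0.307%), 2 near a snRNA (0.0877%) and 15 near a miRNA gene (0.658%). In the same order the shares were 0.301, 0.301, 0.251 and 0.401% of shared peaks. They were 0.799, 1.13, 0.133 and 0.733% of conservative-only peaks. A further 64 optimal-only peaks (2.81%), not at protein-coding promoters, lay within 1 kb of the TSS of a long non-coding RNA, against 2.61% of shared peaks.

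**Figure D4:**
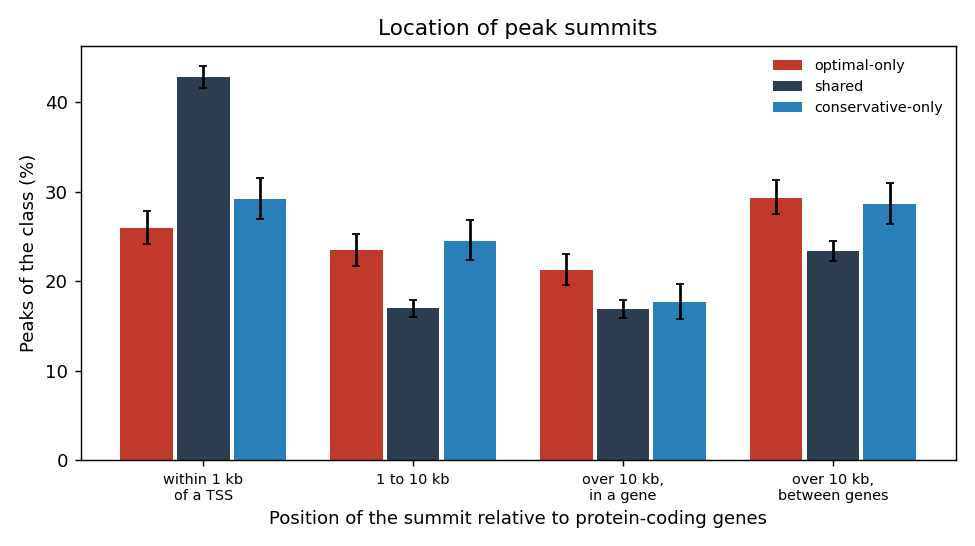
Percentage of peaks (vertical axis) by position of the summit relative to protein-coding genes (horizontal axis), for optimal-only (red), shared (dark) and conservative-only (blue) peaks, with exact 95% binomial intervals. The promoter bar is 26.0% for optimal-only, 42.8% for shared and 29.2% for conservative-only peaks.

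Among promoter peaks, fewer optimal-only than shared summits lay close to the TSS. Within 100 bp of it lay 215 of 592 optimal-only promoter summits (36.3%, interval 32.4 to 40.3%), 51.6% of shared ones (49.7 to 53.6%) and 36.8% of conservative-only ones (32.2 to 41.5%). Upstream of the TSS lay 360 of 592 optimal-only promoter summits (60.8%, interval 56.7 to 64.8%), 73.5% of shared and 60.5% of conservative-only ones. These positions were not compared at like signal.

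Peaks in the strongest list of replicate 1 only and of replicate 2 only differed in location. Among optimal-only peaks in the strongest list of replicate 1 only, 29.2% were promoter peaks, against 22.2% of those in the strongest list of replicate 2 only, a difference of 6.999 points (Newcombe 95% interval 2.69 to 11.3). Peaks between 1 and 10 kb went the other way, with 19.6 and 25.1% (difference −5.51 points, −9.55 to −1.38). The distal shares were 51.2 and 52.7% (difference −1.48 points, −6.41 to 3.44). With 1 library behind each set, these describe the 2 libraries.

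Optimal-only peaks had near neighbours more often over the whole list and less often at like signal. Another optimal summit lay within 10 kb of 45.3% of optimal-only and 33.1% of shared peaks, a difference of 12.2 points (9.80 to 14.5). Within signal classes the difference was −5.87 points (−8.52 to −3.21), so the direction turned. Overlapping peaks count as neighbours here. A weak peak on top of a shared one mostly becomes shared by the rule, so this value is not independent of the choice of members. A difference with overlapping peaks merged was not computed within signal classes. The unstratified difference was 6.54 points with overlapping optimal peaks merged, 5.34 points with conservative peaks within 1 kb counted as overlapping, and 18.8 points where 50% of a peak had to be covered. Of the optimal-only peaks, 517 (22.6%) overlapped another optimal peak, and 511 of these overlapped another optimal-only peak, while 6 overlapped a shared peak. Merging overlapping peaks gave 7588 loci, of which 2015 held optimal-only peaks alone and 6 held both kinds. A peak that overlaps no other forms a locus by itself, so these counts of loci speak of overlapping peaks only through the 517. Of the shared peaks, 96.3% were fully covered by a conservative peak. An optimal peak that overlaps one of these also overlaps that conservative peak and so is shared by the rule. The 511 and 6 peaks above, and the 6 loci with both kinds, were thus largely set by the rule.

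By chromosome, optimal-only peaks were spread across the genome. Their share of the optimal peaks of a chromosome ranged from 21.4% on chromosome 3 to 32.9% on chromosome 16 among the autosomes. It was 30.7% on the X chromosome, where 39 of 127 optimal peaks were optimal-only.

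Optimal-only promoter peaks reached 558 of 21532 protein-coding genes with a TSS (2.59%), and 503 genes (2.34%) had no other optimal promoter peak. Shared promoter peaks reached 2716 genes (12.6%), and 55 genes had both kinds. Of all genes with an optimal promoter peak, 15.6% (interval 14.4 to 16.9%) were thus covered by optimal-only peaks alone, which is the figure to read the gene lists against. The lists were chosen with earlier results of these data known, and a share near that of all genes is no result about a list.

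Of the housekeeping genes with an optimal promoter peak, a share near that of all genes was covered by optimal-only peaks alone. Most genes of these lists had neither kind. Shared promoter peaks reached 29.7% (oxidative phosphorylation) to 37.2% (ribosomal proteins) of a list, against 12.6% of all genes. Genes with only an optimal-only peak made up 4.00% (mitochondrial ribosomal proteins) to 7.04% (heat shock and chaperones), against 2.34%. Those shares rest on 2 to 5 genes per list, were given no interval, and are no result about the lists. Of 86 ribosomal protein genes, 4 had only an optimal-only peak, 1 had both kinds and 31 only a shared one, so 11.1% of the occupied genes were covered by optimal-only peaks alone. Rps20 had a signal of 30.3 (11.2 in replicate 1 and 20.95 in replicate 2) and Rpl18 one of 24.9 (16.9 and 7.19). The Rpl18 summit lay near an internal start, 2491 bp from the outer 5′ end of the gene. Mitochondrial ribosomal proteins counted 3 only optimal-only, 1 both and 25 only shared of 75, with Mrpl39 at 27.3. Oxidative phosphorylation genes counted 5, 1 and 26 of 91 in that order (15.6%), led by Atp5md at 23.1 and Atp5k at 22.0. The Atp5md summit also lay within 1 kb of the TSS of Pdcd11. Heat shock proteins and chaperones counted 5, 1 and 24 of 71 (16.7%), among them Dnaja2, a co-chaperone of Hsp70 proteins, at 21.4 with 4.25 in replicate 1 and 18.3 in replicate 2. For proteasome genes the counts were 2, 0 and 13 of 39, including the subunits Psma3 (20.5) and Psmd14 (16.3). The Psma3 summit lay at an internal start, 5343 bp from the outer 5′ end of the gene. The shares covered by optimal-only peaks alone among genes with an optimal promoter peak are no result about the lists.

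Splicing factors, translation factors and histone chaperones lay under the share of all genes in number. Of 103 splicing factors, 3 had only an optimal-only peak, 2 both and 47 only a shared one (5.77%, interval 1.21 to 15.9%). Sf3b2 and Hnrnpu, a nuclear RNA-binding scaffold protein, with a signal of 28.6, were among the 3. Translation initiation and elongation factors counted 1, 0 and 16 of 71, the 1 being Eif2s2, the beta subunit of initiation factor eIF2, with a signal of 23.7, 20.5 in replicate 1 and no overlapping replicate 2 peak. None of the 13 occupied histone chaperone and variant genes, and none of the 7 occupied RNA polymerase subunit genes, was covered by optimal-only peaks alone, with upper limits of 24.7 and 41.0%. The intervals of the translation factor, histone chaperone and polymerase lists reach 15.6%, and that of the splicing factors does so by little.

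Among genes of chromosome duplication, the replication-dependent histones counted 5 only optimal-only, 2 both and 20 only shared of 62 (18.5%, interval 6.30 to 38.1%). H2ac8 and H2bc8 share 1 peak, so these 5 genes rest on fewer than 5 peaks. DNA replication and repair genes counted 4, 0 and 18 of 39 (18.2%). Pola1, the catalytic subunit of DNA polymerase alpha, had a signal of 40.9, with 34.6 in replicate 1 and 6.28 in replicate 2. Mcm10, a replication initiation factor, had 35.4, with 26.98 and 5.99. Of the cell cycle genes, Cdc25a, a phosphatase that activates cyclin-dependent kinases, was the only one of 31 covered by optimal-only peaks alone, with a signal of 28.6, and 17.1 and 11.7 in the replicates. At these 3 genes replicate 1 was higher, whereas at H2ac4 and H2ac8 it was replicate 2.

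Transcriptional and chromatin regulators gave small counts. Zbtb zinc finger genes counted 4 only optimal-only, 0 both and 8 only shared of 40 (33.3%, interval 9.92 to 65.1%), with Zbtb42 at 33.0 and Zbtb45 at 27.4. Zfp zinc finger genes counted 13, 2 and 78 of 393 (13.98%), led by Zfp599 at 31.9 and Zfp384 at 29.8. Mediator, the complex that links activators to RNA polymerase, counted 2, 0 and 8 of 30, with Med23 at 27.4 and Med21 at 19.2. Chromatin remodellers counted 1, 3 and 9 of 41. Smarcc1 was the 1 covered by optimal-only peaks alone. The NuRD subunit Mbd3 (24.4) and the PBAF subunit Pbrm1 (24.3) had optimal-only peaks beside a shared one. The Mbd3 summit lay 994 bp inside the gene. The Pbrm1 summit lay at −945 bp from its TSS, inside Gnl3 and also within 1 kb of the TSS of Gnl3. Polycomb genes counted 1, 2 and 4 of 30, with Eed (19.7) beside a shared peak and Cbx8 (18.1) with an optimal-only peak alone.

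Of 29 pluripotency genes, Pou5f1, which encodes the stem cell factor Oct4, was the only one covered by optimal-only peaks alone. Fbxo15 had both kinds and 7 genes had only shared peaks. Pou5f1 was thus 11.1% of the occupied genes of the list (interval 0.281 to 48.25%), against 15.6% over all genes. The Pou5f1 peak at chr17:35509348-35509707 had a signal of 19.0, with 11.7 in replicate 1 (rank 7401) and 6.82 in replicate 2 (rank 28905). Its summit was 721 bp inside an internal start and 3496 bp from the outer 5′ end of the gene. Among immediate early genes 1 of 29 was Ier3 (signal 18.2, no overlapping replicate 2 peak), and among extraembryonic markers 1 of 19 was Tfap2c (signal 23.5, no overlapping replicate 1 peak). No optimal-only promoter peak was found at 39 Hox genes, 53 keratin genes or 1104 olfactory receptor genes, none of which had a shared one either. Of the germline, fibroblast and primed lineage genes, 6 of 22, 1 of 21 and 4 of 20 had a shared promoter peak and none an optimal-only one. Over all protein-coding genes, 2.59% had an optimal-only promoter peak. In lists of 19 to 53 genes, 0 or 1 gene with such a peak is near that share and is no result about the list.

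Promoter windows with optimal-only summits were close in sequence to those with weak shared summits. Each RefSeq window ran from 250 bases before to 50 after a TSS. The 10 sequences searched on both strands, named by a factor or element, began with CCAAT for the factor NF-Y, GGGCGG for Sp and KLF factors, CCGGAAG for ETS factors and TGACGT for the cAMP response element. The others were GCATGCGC for NRF1, AAGATGGC for YY1, CACGTG for the E box, TATAAA for the TATA box, CTCGCGAG as the core of a palindrome, and CGCG. CTCGCGAG contains CGCG, so a match to the first is also one to the second. The windows compared were 247 with only optimal-only summits, 1578 with shared ones, 242 with shared ones under the median signal, 183 with conservative-only ones and all 21005. Chromosome 18 is not in the window table used here.

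Only exact matches to CTCGCGAG were counted. They were held by 0.810% of optimal-only windows (2 windows), 10.7% of shared, 1.24% of weak shared and 1.25% of all windows. The difference from shared windows was −9.90 points (−11.6 to −7.36), and that from weak shared windows −0.430 points (−2.84 to 1.82). This is the sequence in capitals at Qrich1 and Sec23ip above, whose peaks had signals of 463.

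CCAAT, the sequence paired at H2ac4, H2ac8 and Shkbp1, was held by 55.5% of optimal-only, 65.7% of shared, 52.1% of weak shared and 38.1% of all windows. Its difference was −10.3 points from shared windows (−16.9 to −3.73), 3.40 points from weak shared windows (−5.40 to 12.1) and 17.3 points from all windows (11.05 to 23.4). CGCG was held by 71.7% of optimal-only, 79.6% of shared, 78.5% of weak shared, 82.0% of conservative-only and 49.7% of all windows. Its difference from conservative-only windows was −10.3 points (−18.0 to −2.17). GGGCGG was held by 59.9, 64.8 and 64.5% of optimal-only, shared and weak shared windows and 46.6% of all windows. CCGGAAG was held by 25.9% of optimal-only and 11.7% of all windows, TGACGT by 15.0 and 8.56%, GCATGCGC by 5.26 and 3.55%, AAGATGGC by 3.64 and 3.08%, CACGTG by 12.6 and 7.90%, and TATAAA by 8.10 and 12.5%. In the same order, the shares of weak shared windows were 30.6, 16.5, 4.13, 7.02, 12.4 and 6.20%. Against weak shared windows the interval included 0 for each of the 10 sequences. These intervals are wide, reaching −14.4 points for CGCG, so they do not show that the windows are alike. In all 40 differences were computed, and the intervals are not adjusted for that number. Median GC content was 59.7% in optimal-only, 60% in shared and 56.7% in all windows. The ratio of observed CG dinucleotides to those expected from C and G content was also taken. Its median was 0.787 in optimal-only windows (interval 0.749 to 0.824) and 0.824 in weak shared windows (0.806 to 0.851).

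**Figure D5:**
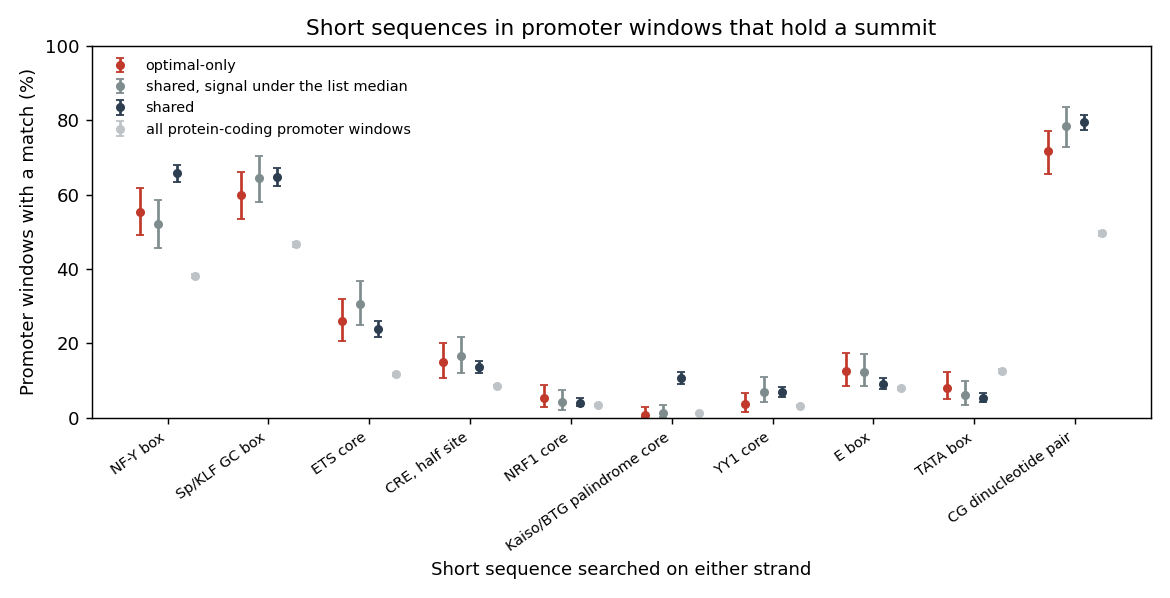
Percentage of promoter windows (vertical axis) with an exact match, on either strand, to each of 10 short sequences (horizontal axis, by factor or element name). Colours give optimal-only, weak shared, shared and all windows, with exact 95% binomial intervals. The palindrome core stands at 10.7% in shared windows and at 0.810% in optimal-only windows, and optimal-only and weak shared intervals overlap for each sequence.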

How the data were processed

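CHD2 ChIP-seq peak lists of 2 biological replicates of ES-E14 cells were used as deposited on mm10. The signal per peak and the −log10 q-value are the authors' own, and the deposited summit offset, counted in bases from the peak start, gave summits. Per the deposited descriptions, both IDR lists derive from each replicate's relaxed list, from a pooled one and from 1 file of undescribed role. No source used here names the peak caller, aligner or normalization, which can shift every signal, rank and count. The deposited score, the mm9 list and the control were not used here. All 8282 optimal peaks had the position of a pooled relaxed peak.

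Overlap was 1 bp or more. Replicate values are those of the strongest overlapping relaxed peak, and unmatched peaks had signal 0 and the last rank. TSS came from RefSeq promoter windows of GRCm38.p6, plus outer 5′ ends with strand by symbol from GENCODE M1, for 21532 of 21896 protein-coding genes (98.3%). Differences of shares carry Newcombe 95% intervals, or Mantel-Haenszel intervals within signal classes, and shares exact Clopper-Pearson ones; no p-values were computed. The scripts were tested on simulated data and used Python 3.11.15, pandas 2.3.3 and scipy 1.17.1.

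The members and gene lists were chosen with earlier results of these data known. Named genes were those of the 10 strongest promoter and 5 strongest distal peaks, the 3 largest and smallest rank differences, the 3 peaks nearest each side of the overlap limit, the 3 strongest unmatched promoter peaks per replicate, and up to 2 per gene list; Pou5f1, Sox2, Nanog and Chd genes were added where a peak was within 1 kb, which held for Pou5f1. Qrich1, Sec23ip and the list members named beside these were chosen after their values were seen. Not all list members under the rule are described, to keep the text short. Alternatives were the overlap, promoter window, TSS set, match rule, signal classes and leaving out a replicate.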

Additional observations from a re-analysis of the deposited data

How the results depend on the processing

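Of 67 alternative values, 50 were counted as the same, by a rule that depended on the kind of result. Differences of shares had to keep their direction and whether the interval included 0. Signal ratios had to stay within 0.0723, the standard deviation of the 2 replicate ratios. The matched share and the rank difference had to stay inside the main 95% interval. For counts the rule was wide: 444 and 707 genes with promoter windows of 0.5 and 2.5 kb passed as the same as 558. Within signal classes the promoter difference was −2.15 points, the distal difference 0.327 points, both with intervals that include 0, and the neighbour difference turned to −5.87 points. In the stronger part of the list (4141 peaks) there were 200 optimal-only peaks at 76 genes, the signal ratio was 0.665 (replicate 1 0.547, replicate 2 0.787), the log2 rank difference 3.76 and the share matched in both replicates 92%. Requiring 50% of a peak to be covered gave a log2 rank difference of 2.64, the nearest summit 2.92, and matching within the strongest peaks of each replicate 2.32% matched in both. Leaving out a replicate means keeping the optimal-only and shared peaks that overlap the strongest list of the other: it left 750 to 959 optimal-only peaks at 217 to 219 genes, with promoter differences of −22.4 to −16.2 points, distal ones of 11.9 to 13.4, neighbour ones of 9.39 to 9.56 and signal ratios of 0.539 to 0.546. These fewer peaks follow from the construction; for the other changes the cause was not tested. Merged loci, outer 5′ ends and neighbours within signal classes were chosen after seeing the data. No paired analysis was possible because there is 1 group and no result comes from a test between samples. Read depth is unknown and limits every match to a relaxed list.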
